A study of Oncorhynchus mykiss with 8 samples.

Results

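Messenger RNA of 6 probes for insulin-like growth factor (IGF) binding proteins, an IGF receptor and a growth hormone (GH) receptor was followed in the liver of small and large rainbow trout. The 6 were taken by probe identifier from the 43603 probes of the array, and all 6 had a value on every one of the 8 arrays. IGFBP1 was held by 2 of the probes, A_05_P489857 (called IGFBP1 probe 1 here) and A_05_P249019 (IGFBP1 probe 2). The other probes were A_05_P249174 for igfbp6, A_05_P249194 for igfbprp1, A_05_P249834 for an IGF-I receptor and A_05_P249629 for ghr1, the single probe named for a GH receptor. All fish were of the Lyndon strain, were immature juveniles older than a year and belonged to a Dec. lot or a Sept. lot, named for the season in which its parents spawned. The fish were fasted for 2 days before weighing. A lot consisted of half-sib families of 1 male, and each pool joined liver mRNA of 5 fish, 1 from each family. Small and large fish were the 2 smallest and the 2 largest by weight of each family. Both sexes were present in each size class of a lot, while the sexes within a pool are not given. Each array set a pool of small fish against one of large fish from that lot, and each of the 2 pool pairs of a lot was hybridized on 2 arrays, on which Alexa Fluor 647 and Alexa Fluor 555 were exchanged. The lots differed in parents, in the season of sampling, in the weights of their small and large fish and in their arrays, which cannot be told apart.

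The GH and IGF axis ties nutrition to growth. GH from the pituitary acts on the liver through its receptor and stimulates the release of IGF-I into the blood, and IGF-I acts on tissues through the IGF-I receptor. Most circulating IGF is carried by binding proteins that prolong its life or keep it from its receptor. IGFBP1 is made mainly in the liver, is held down by insulin and is known in mammals and in salmonids as a binding protein that increases in fasting, stress and slow growth. IGFBP6 prefers IGF-II, and igfbprp1, also called IGFBP7, is a related protein that binds IGFs only weakly.

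Names bear on what the probes can show. The symbols igfbp6, igfbprp1 and ghr1 came from the platform annotation, and the IGF-I receptor was named in the study's muscle tables. Both IGFBP1 probes owe their name to the study's liver tables, which list probes past its thresholds in these samples, so their place past those thresholds is not independent evidence. The array was designed on Atlantic salmon sequences. The trout gene table holds 2 igfbp1 genes, 2 igfbp6 genes and 3 GH receptor genes, and which of these copies a probe reads was not tested. Only ratios of the 2 channels were deposited, so that no level of a gene, in either size class, can be given.

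With the deposited signs, small fish had the higher mean IGFBP1 signal in both lots. The ratio of IGFBP1 probe 1 was larger in the Dec. lot, while for IGFBP1 probe 2 the pool pairs of the lots overlapped. IGFBP1 probe 1 was 3.27-fold higher in small than in large fish in Dec. and 1.62-fold higher in Sept. IGFBP1 probe 2 was 1.40-fold higher in Dec., and its Sept. ratio of 1.19 did not pass the thresholds. The ratios of igfbp6, igfbprp1, the IGF-I receptor and ghr1 did not pass them in either lot. No probe of the array passed an adjusted p of 0.05 in either lot, so none of these differences holds after correction for the number of probes.

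In Dec. pool pair 1, the log2 ratio of small over large fish for IGFBP1 probe 1 was 1.10 with the small fish in Alexa Fluor 647 and 2.09 with the small fish in Alexa Fluor 555. In Dec. pool pair 2 it was 1.73 and 1.92 in the same order of dyes. In Sept. pool pair 1 it was 0.17 and 0.67, and in Sept. pool pair 2 it was 0.67 and 1.28. All 8 arrays were thus above 0, which 0.258% of the 33291 probes with values on all arrays were, and 1 of the 6 probes. That share is not independent evidence, since IGFBP1 probe 1 owes its name to the study's liver tables. The single arrays of the lots overlapped, since the highest Sept. array was above the lowest Dec. array. The pool pair means, 1.60 and 1.82 in Dec. and 0.42 and 0.97 in Sept., did not overlap. In 28.9% of those 33291 probes the pool pair means of the lots stood apart, in either direction, and in 1 of the 6.

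**Figure D1:**
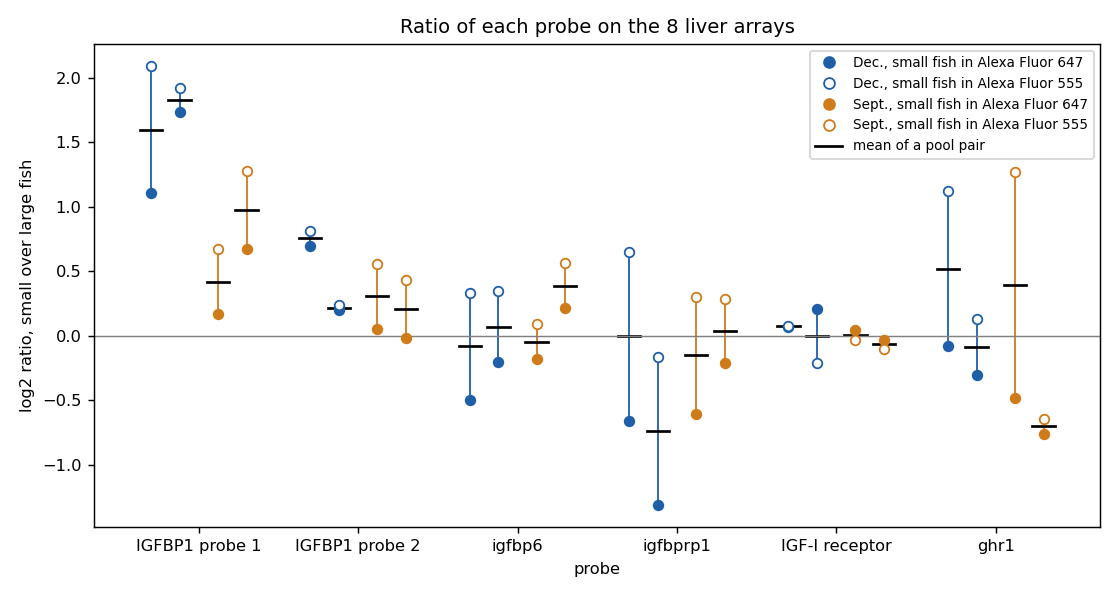
Log2 ratio of small over large fish (vertical axis) of the 6 probes on the 8 arrays, with Dec. in blue to the left of Sept. in orange. Filled circles are arrays on which small fish carried Alexa Fluor 647, open circles those on which they carried Alexa Fluor 555, thin lines join the 2 arrays of a pool pair and black bars are their means. IGFBP1 probe 1 lies above 0 on all 8 arrays, between 0.17 and 2.09, and each of the other probes has at least 1 array below 0.

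With the 2 arrays of a dye flip averaged and the pool pair as the replicate, the log2 ratio of IGFBP1 probe 1 was 1.71 in Dec. (SE 0.18, n = 2 pool pairs), with a 95% interval of 1.23 to 2.20. In Sept. it was 0.70 (SE 0.18, n = 2 pool pairs), with an interval of 0.21 to 1.18. The SE and intervals here and below use a spread shared by both lots. From the 2 pool pairs of each lot alone, the SE of IGFBP1 probe 1 was 0.11 in Dec. and 0.28 in Sept. Its size ranked 19 among the 34014 probes tested in Dec. and 908 among the 38679 probes tested in Sept., both ranks holding for the deposited signs. Both ratios passed the cut-offs used in the study (unadjusted p at most 0.05, fold change at least 1.2). The adjusted p (limma, Benjamini-Hochberg) was 0.990 in Dec. and 1.00 in Sept. The Sept. ratio missed the cut-offs when the test named in the methods was run over the 4 arrays or over the 2 pool pairs. It also missed them, at 0.42, without Sept. pool pair 2 and on the arrays with small fish in Alexa Fluor 647 alone, while the Dec. ratio passed them without either pool pair.

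In Dec., 2 of the 6 probes passed these thresholds, against 4.84% of all probes tested, and both were higher in small fish, against 2.09% of all probes in that direction. In Sept. 1 of the 6 passed, against 2.72% of all probes, and it was higher in small fish, against 1.52% in that direction. The probes that passed are the IGFBP1 probes, named from the study's list of probes past its thresholds in these samples. Their count against these shares is thus not independent evidence. At an adjusted p under 0.05, 0 of the 6 and 0% of all probes were called in Dec., in Sept., for the difference between the lots and for the mean of both lots.

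For IGFBP1 probe 2, the Dec. arrays gave log2 ratios of 0.69 and 0.81 in pool pair 1, with the small fish in Alexa Fluor 647 and in Alexa Fluor 555, and of 0.20 and 0.24 in pool pair 2. The Sept. arrays gave 0.06 and 0.55 in pool pair 1 and -0.01 and 0.43 in pool pair 2. All arrays but 1 Sept. array were above 0, and the values of the lots overlapped. The mean was 0.48 in Dec. (SE 0.17, n = 2 pool pairs) and 0.26 in Sept. (SE 0.17, n = 2 pool pairs). The Dec. ratio rests on pool pair 1, whose mean was 0.75 against 0.22 in pool pair 2, and it was 0.22 and no longer passed without pool pair 1. The call was also lost, at an unchanged ratio of 0.48, when either Sept. pool pair was left out of the shared spread.

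The 2 probes named for IGFBP1 did not give the same size of ratio. Probe 1 exceeded probe 2 by 0.84 and 1.61 on the log2 scale in the Dec. pool pairs and by 0.11 and 0.77 in the Sept. pool pairs. The mean difference was 0.83 ± 0.61 (SD, n = 4 pool pairs), with a two-sided exact sign-flip permutation p of 0.125, the smallest that 4 pairs allow. The probes may read different igfbp1 copies, which was not tested.

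The ratios of the lots were also compared directly. For IGFBP1 probe 1, Dec. minus Sept. was 1.01 on the log2 scale (SE 0.26), with an interval of 0.33 to 1.70 before any adjustment and an adjusted p of 1.00 in limma. Of all probes 2.75% reached an unadjusted p of 0.05 in this contrast, and 1 of the 6 did. That call was lost without Dec. pool pair 2, where the difference was 0.90, without Sept. pool pair 1, where it was 0.74, and with the arrays scaled to 1 spread, where it was 0.60. For the other 5 probes the difference lay between -0.31 for igfbprp1 and 0.37 for ghr1, and none reached that p. Without Dec. pool pair 1 igfbprp1 did, at -0.68. Over both lots the mean log2 ratio of IGFBP1 probe 1 was 1.204 (SE 0.13, n = 4 pool pairs), a fold of 2.30 and rank 7 by size of 33291 probes. For IGFBP1 probe 2 it was 0.37 (SE 0.12, n = 4 pool pairs). These 2 of the 6 passed the thresholds over both lots, against 3.15% of all probes, and the same 2 were above 0 in all 4 pool pairs, against 5.88%. Since both owe their names to the study's liver tables, neither comparison is independent evidence.

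**Figure D2:**
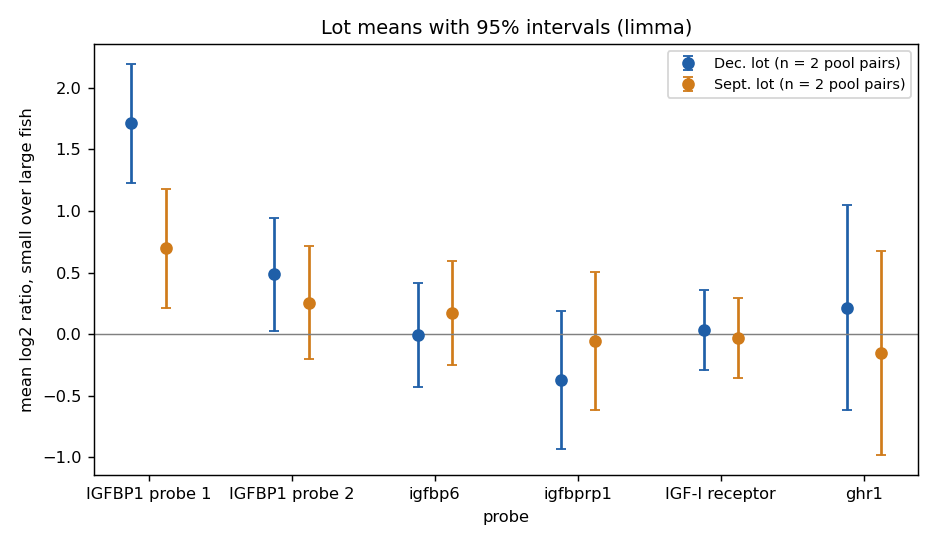
Mean log2 ratio of small over large fish (vertical axis) per probe, with Dec. in blue and Sept. in orange, as points with 95% intervals from limma over 2 pool pairs a lot. The intervals use a spread shared by both lots. The intervals of IGFBP1 probe 1 lie above 0 in both lots and that of IGFBP1 probe 2 does so in Dec., while those of the other probes hold 0.

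**Figure D3:**
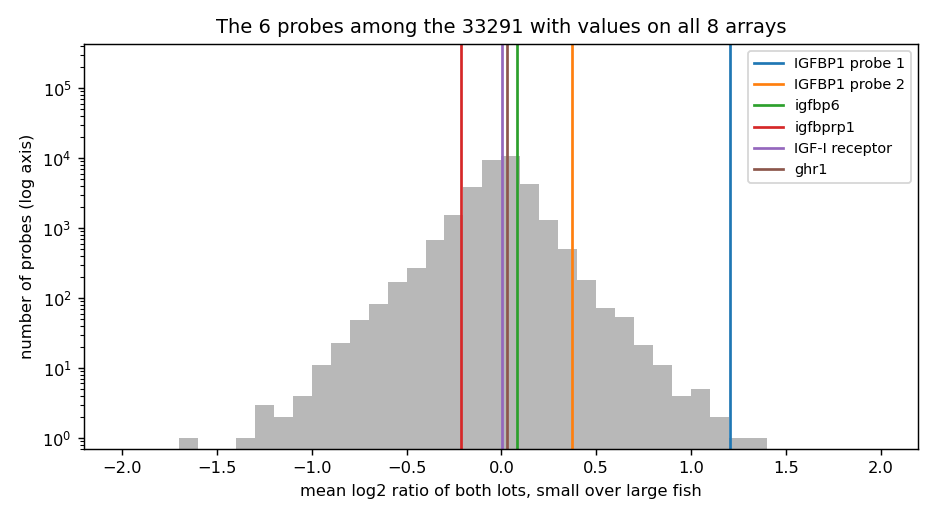
Number of probes (log axis) by their mean log2 ratio of both lots, for the 33291 probes with values on all 8 arrays, with lines at the 6 probes. IGFBP1 probe 1 at 1.204 stands in the far right tail, IGFBP1 probe 2 at 0.37 on the right shoulder, and the other 4 between -0.22 and 0.08.

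The remaining binding proteins were near or below 0. For igfbp6, the log2 ratios of the Dec. arrays were -0.50 and 0.33 in pool pair 1 and -0.21 and 0.35 in pool pair 2, again with Alexa Fluor 647 before Alexa Fluor 555. The Sept. arrays gave -0.18 and 0.09 in pool pair 1 and 0.21 and 0.56 in pool pair 2. Its mean was -0.01 in Dec. and 0.17 in Sept. (SE 0.16, n = 2 pool pairs each), with intervals of -0.43 to 0.42 in Dec. and -0.25 to 0.59 in Sept. Each interval holds 0 and leaves room for a ratio in either direction.

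For igfbprp1, the Dec. arrays gave -0.66 and 0.65 in pool pair 1 and -1.31 and -0.16 in pool pair 2. The Sept. arrays gave -0.61 and 0.30 in pool pair 1 and -0.21 and 0.29 in pool pair 2. Arrays on which small fish carried Alexa Fluor 647 were below 0 in every pair and did not overlap with those of the opposite dye order. The mean was -0.37 in Dec. (SE 0.21, n = 2 pool pairs), with an interval of -0.93 to 0.19, and -0.06 in Sept. (SE 0.21, n = 2 pool pairs), with an interval of -0.62 to 0.50. The Dec. value was -0.74 and passed the thresholds without pool pair 1, and was -0.01 in pool pair 1 alone.

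Of the receptors, the one for IGF-I varied least. The log2 ratios of its arrays were 0.07 and 0.07 in Dec. pool pair 1, 0.20 and -0.21 in Dec. pool pair 2, 0.05 and -0.03 in Sept. pool pair 1 and -0.03 and -0.10 in Sept. pool pair 2. The mean was 0.03 in Dec. and -0.03 in Sept. (SE 0.12, n = 2 pool pairs each). The intervals, -0.29 to 0.36 in Dec. and -0.35 to 0.29 in Sept., were the narrowest of the 6 probes. Spot signals are lacking, so whether this probe was bright enough in liver to show a difference was not tested.

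The pool pairs disagreed for ghr1, a receptor through which GH acts on the liver. Its Dec. arrays gave -0.08 and 1.12 in pool pair 1 and -0.30 and 0.13 in pool pair 2. Its Sept. arrays gave -0.48 and 1.27 in pool pair 1 and -0.76 and -0.64 in pool pair 2. The pair means were 0.52 and -0.09 in Dec. and 0.40 and -0.70 in Sept., so that each lot held a pair on either side of 0. The mean was 0.22 in Dec. and -0.15 in Sept. (SE 0.31, n = 2 pool pairs each), the widest error of the 6, with intervals of -0.61 to 1.05 in Dec. and -0.98 to 0.68 in Sept.

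The dye order moved with most of these ratios. In 5 of the 6 probes, all but the IGF-I receptor, the array with the small fish in Alexa Fluor 555 was above its partner in all 4 pool pairs, as in 16.9% of all probes. The mean gap between the partners was 0.97 on the log2 scale for igfbprp1 and 0.88 for ghr1. It was 0.57 for IGFBP1 probe 1, 0.50 for igfbp6, 0.28 for IGFBP1 probe 2 and -0.14 for the IGF-I receptor, against a median of -0.07 over all probes. Without regard to sign, the median gap over all probes was 0.29. The 5th and 95th percentiles of the gap were -0.63 and 1.02, a range that holds all 6 probes. For igfbprp1, ghr1, igfbp6 and the IGF-I receptor the gap was larger in size than any of their lot means. For IGFBP1 probe 2 the Dec. mean of 0.48 exceeded the gap and the Sept. mean of 0.26 did not. For IGFBP1 probe 1 both lot means exceeded it. Within Sept. pool pair 1 of that probe, however, the gap of 0.50 was wider than the pair mean of 0.42. Averaging the partners balances the 2 dye orders within each pool pair only if the deposited signs hold for both arrays.

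**Figure D4:**
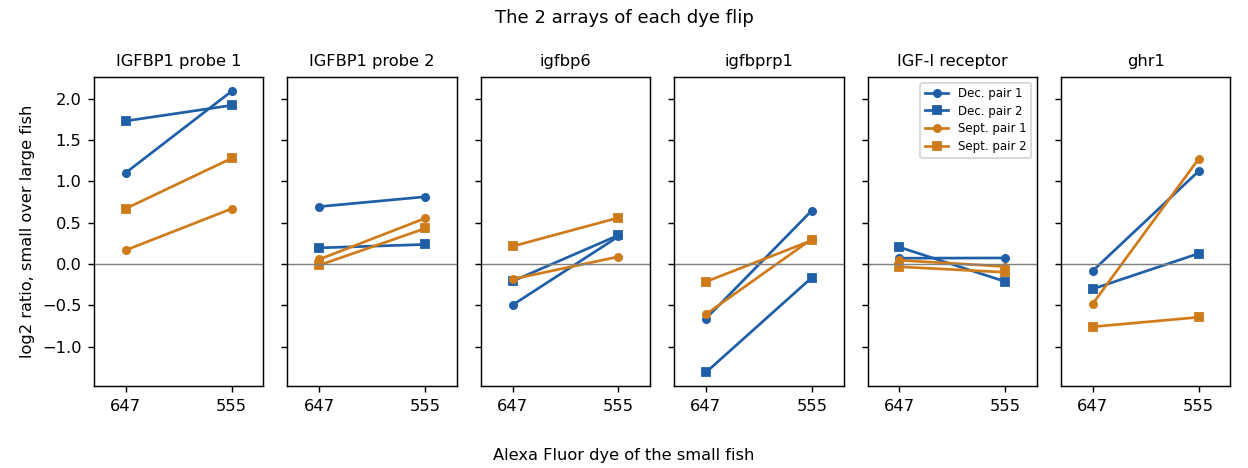
Log2 ratio of small over large fish (vertical axis) on the 2 arrays of each dye flip, by the dye of the small fish (horizontal axis), with 1 panel per probe, Dec. in blue and Sept. in orange, circles for pool pair 1 and squares for pool pair 2. Lines run upward from 647 to 555 in all 4 pool pairs for every probe but the IGF-I receptor.

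The direction of the ratios matters here. Every value was read as small over large fish, as the study read them, since 722 of 723 entries of its liver lists, the 6 probes left out, then fall on their listed side. Those lists were made from the same ratios, so this shows how the values were read and is no separate check of the arrays with small fish in Alexa Fluor 555. The correlation across probes between the 2 arrays of a dye flip was only -0.144 to 0.057. Arrays of the same dye order in different lots correlated above 0 in 8 of 8 cases (0.0524 to 0.358), and arrays of opposite dye order in 0 of 8 (-0.272 to -0.0119). With the arrays of small fish in Alexa Fluor 555 turned in sign, IGFBP1 probe 1 was at -0.29 in Dec. and -0.28 in Sept., passed the thresholds in neither lot, and ranked 10810 by size in Dec. and 8418 in Sept. Its mean of both lots was then -0.29 (SE 0.10, n = 4 pool pairs), past the thresholds in the opposite direction and at rank 6786. In the same setting igfbprp1 was at -0.61 in Dec. and -0.35 in Sept. and passed them in both. Many more probes passed with the signs turned, 6809 of 34014 in Dec. and 3664 of 38679 in Sept. With the deposited signs 1647 passed in Dec. and 1054 in Sept. How many probes passed over both lots with the signs turned was not counted.

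In the names used here, the list of the GH and IGF axis held the 6 probes alone. Since 42109 probes had no name, further probes of the axis on the array were not analysed here. A list of genes of the insulin and fasting response in liver held 14 probes. In Dec., 9 of them were above 0, 3 passed the thresholds as higher and 1 as lower in small fish, against 2.09% and 2.75% of all probes. The 3 that passed as higher stand in the study's liver tables, which list probes past its thresholds in these samples. Their count against 2.09% is thus not independent evidence. The median log2 ratio of the 14 was 0.10, against 0.01 over all probes. In Sept., 5 of the 14 were above 0 and none passed, with a median of -0.13, against 0.00 over all probes. The largest mean ratios of both lots were those of pyruvate kinase A_05_P390772, an enzyme of glycolysis, at -0.38, of the 2 pck2 probes A_05_P425397 and A_05_P249281, for an enzyme of gluconeogenesis, at -0.34 and -0.31, and of pparg, a lipid-sensing nuclear receptor, at 0.29. Of these 4, pparg at 0.73 (SE 0.19) and pck2 A_05_P249281 at -0.45 (SE 0.16) passed the thresholds in Dec., and none passed in Sept. (n = 2 pool pairs each). Pyruvate kinase A_05_P390772 was at 0.01 and -0.74 in the Dec. pool pairs. The other pyruvate kinase probe of the list, A_05_P253514, was at 0.08 over both lots.

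Among 1395 named probes outside the 6, pparg also had the pattern most like IGFBP1 probe 1 over the 8 arrays, with a Pearson r of 0.94. Next came glutathione peroxidase at 0.93, cell division control protein 2 homolog at 0.93, hemoglobin subunit beta at 0.92 and monoglyceride lipase at 0.92. These r describe 8 points that share pools, lots and dyes, and they do not compare levels. In the Sept. pool pairs IGFBP1 probe 1 was at 0.42 and 0.97, but pparg at -0.21 and -0.07. Glutathione peroxidase was at -0.58 and -0.01 there, and cell division control protein 2 homolog at -0.59 and -0.30. Hemoglobin subunit beta was at -0.23 and 0.25, and monoglyceride lipase at -0.09 and 0.45. For the other 5 probes the highest r to a named probe ran from 0.91 to 0.98. The correlation of IGFBP1 probe 1 with the other 5 probes ran from -0.01 for the IGF-I receptor to 0.43 for IGFBP1 probe 2.

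Red blood cell markers moved with the lots as well. Many of their probes stand in the study's liver tables, which list probes past its thresholds in these samples. Their medians and counts past the thresholds are thus not independent evidence. Of 13 hemoglobin and band 3 probes, 13 were above 0 in Dec. and 10 passed the thresholds as higher in small fish, against 2.09% of all probes, with a median log2 ratio of 0.71, against 0.01 over all probes. In Sept. 2 of the 13 were above 0 and 6 passed as lower in small fish, against 1.21% of all probes, with a median of -0.42, against 0.00 over all probes, in the lot where IGFBP1 probe 1 was at 0.70. Of the hemoglobin probes outside the liver tables, A_05_P365862 passed in both lots and A_05_P249379 in Dec., while A_05_P332705 and A_05_P395622 passed in neither. Among these, A_05_P365862 and A_05_P395622 owe their names to the study's muscle tables. Liver markers such as albumin and fibrinogen had Dec. lot means above 0 in 0 of 13 probes, with a median of -0.34, against 0.01 over all probes. Most of the 13 entered the list by a name from the study's muscle tables, which list probes past its thresholds in muscle of these fish. The list was thus not chosen apart from fish size. Several of the 13 share a gene name. Their median was -0.60 in Dec. pool pair 1 and -0.10 in Dec. pool pair 2, where some of the probes were above 0. In Sept. 3 of the 13 were above 0, with a median of -0.10, against 0.00 over all probes. Of these 13, only the 2 probes for warm temperature acclimation-related 65 kda protein, at -1.09 and -0.74, passed the thresholds in Dec. Both were lower in small fish, against 2.75% of all probes in that direction. None of the 13 passed in Sept. The part of these markers in the Dec. ratio of IGFBP1 was not tested, and in pooled tissue fewer cells of a type and less RNA per cell cannot be told apart.

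**Figure D5:**
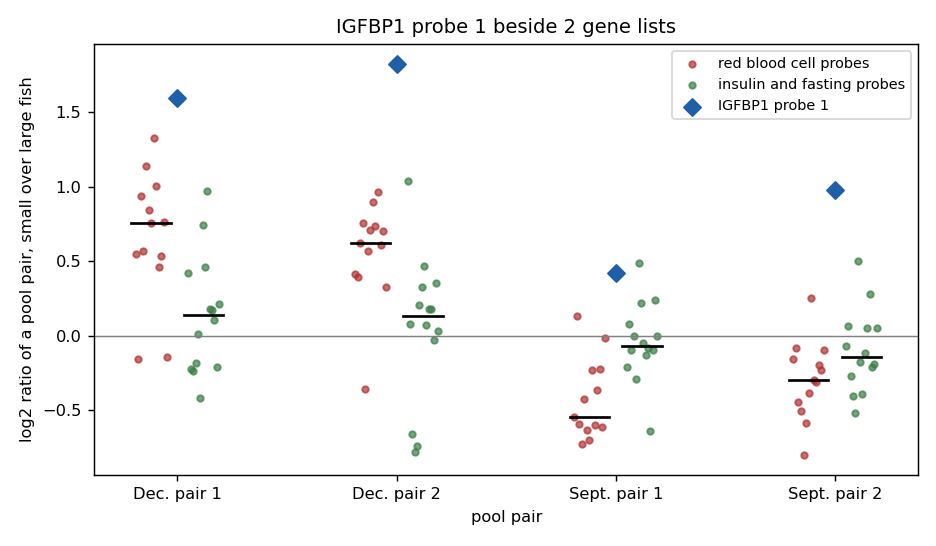
Log2 ratio of small over large fish (vertical axis) in the 4 pool pairs for IGFBP1 probe 1 (diamonds), 13 red blood cell probes (red) and 14 probes of the insulin and fasting response (green), with black bars at list medians. The red blood cell probes have medians of 0.76 and 0.62 in Dec. and of -0.54 and -0.30 in Sept., while IGFBP1 probe 1 is above 0 in all 4.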

How the data were processed

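Liver mRNA pools were compared on 8 two-color Agilent salmonid arrays. The authors read spot intensities with Genepix Pro, discarded spots that failed a manual review or a minimum ratio between channels, and applied lowess normalization in Genespring. What they deposited are log2 ratios without spot signal or background, and no filter on dim spots was possible. Of 43663 lines, 60 control spots were left out. Arrays carried 36754 to 41918 values of 43603.

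The 2 arrays of a dye flip hold the same pools and were averaged. The 4 pool pairs were fitted over all probes in limma 3.58.1 (R 4.3.3; lmFit, eBayes) with a mean per lot and a shared spread. A lot was tested on probes with values on all 4 of its arrays, and both lots together on probes with all 8. Pool pairs hold different fish, and their number, 2 per lot, limits the precision. Adjusted p is by Benjamini-Hochberg over all probes tested. The code was tested on simulated data.

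Names came from the platform annotation (221 probes) and the study's liver (398) and muscle (940) tables, and 42109 probes had none. None of the 221 platform accessions is in the trout gene table used for gene copies. The probes and gene lists were chosen with earlier results of these data known, and the liver list was narrowed after it had matched parvalbumins. Named in the text are the 6 probes, the 4 members of the insulin and fasting list with the largest mean ratio of both lots, and the 5 named probes most like IGFBP1 probe 1. A few other members of the gene and marker lists are named beside them. Alternatives covered the test, replicates, normalization, dye, filters, fold, replicate block and each pool pair left out. Figures were drawn in matplotlib 3.10.9.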

Additional observations from a re-analysis of the deposited data

Results flagged for a closer look

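On the Sept. arrays of ghr1, 1 of 4 values stood apart from the other 3. It was 1.27 on the log2 scale of small over large fish, in pool pair 1 with the small fish in Alexa Fluor 555, while the other 3 lay between -0.76 and -0.48. The gap to the nearest value was 0.864 of the whole range, above Dixon's critical value for 4 values. Of 12 groups of 4 arrays looked at (6 probes in 2 lots), 1 stood apart in this way. Chance gives about 1 in 20 for independent values. The 4 arrays of a lot are 2 pool pairs, each hybridized in both dye orders, so that rate does not apply to them. The partner array of the same pools was at -0.48.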

How the results depend on the processing

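In the fit used above, 1647 of all probes passed the thresholds in Dec. and 1054 in Sept. Turning the sign of the arrays on which small fish carried Alexa Fluor 555 changed most. In that setting IGFBP1 probe 1 was at -0.29 in Dec., -0.28 in Sept. and -0.016 for Dec. minus Sept., IGFBP1 probe 2 at -0.04 in Dec. and -0.24 in Sept., igfbp6 at -0.35 in Dec. (now past the thresholds) and -0.15 in Sept., ghr1 at -0.41 in Dec. and the IGF-I receptor at 0.036 in Sept., and 6809 probes passed in Dec. and 3664 in Sept. With only arrays of small fish in Alexa Fluor 647, IGFBP1 probe 1 in Sept. was at 0.42 and no longer passed, ghr1 was at -0.19 in Dec. and -0.62 in Sept. (past the thresholds), igfbprp1 at -0.99 in Dec. (past the thresholds), the IGF-I receptor at 0.0059 in Sept., and 4370 probes passed in Dec. and 1853 in Sept. With only arrays of small fish in Alexa Fluor 555, igfbp6 was at 0.34 and the IGF-I receptor at -0.07 in Dec., igfbprp1 at 0.24 in Dec. and 0.29 in Sept., ghr1 at 0.31 in Sept., Dec. minus Sept. was 0.017 for igfbp6 and -0.0044 for the IGF-I receptor, and 3363 probes passed in Dec. and 2109 in Sept. The cause of these changes was not tested.

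IGFBP1 probe 1 kept its Dec. call in every alternative but the turned signs. Its Sept. ratio of 0.70 missed the thresholds in the methods' t-test over 4 arrays and over 2 pool pairs, so that 0 of the 6 probes passed in Sept., and 1 of 6 passed in Dec. in both. That t-test counted 709 probes in Dec. and 648 in Sept. over arrays and 499 in Dec. and 442 in Sept. over pool pairs, and 4 probes in Sept. passed an adjusted p of 0.05 over pool pairs alone, against 0 in all other settings. IGFBP1 probe 2 lost its Dec. call, leaving 1 of 6, also with each lot fitted alone (1182 of all probes passed in Dec. and 1611 in Sept.). The same 1 of 6 was left with arrays scaled to 1 spread (936 probes in Dec.) and with small fish in Alexa Fluor 555 only (3363 in Dec.). Requiring values on at least 1 array of each pool pair (1897 probes in Dec.) also left 1 of 6. On arrays with small fish in Alexa Fluor 647 only, IGFBP1 probe 2 was at 0.44 in Dec. and did not pass either. A fold of at least 1.5 left 1 of 6 in Dec., with 684 probes, and 569 probes in Sept. After scaling igfbp6 was at 0.016 in Dec., and after quantile normalization at 0.013.

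Leaving out each pool pair in turn moved IGFBP1 probe 1 in Sept. between 0.42 and 0.97, with the call lost without Sept. pool pair 2. The other ranges were -0.081 to 0.07 in Dec., -0.047 to 0.39 in Sept. and -0.39 to 0.042 for Dec. minus Sept. for igfbp6, -0.15 to 0.036 in Sept. and -0.68 (past an unadjusted p of 0.05) to 0.052 for Dec. minus Sept. for igfbprp1, and -0.0043 to 0.072 in Dec. and -0.067 to 0.0074 in Sept. for the IGF-I receptor. For ghr1 they were -0.088 to 0.52 in Dec., -0.70 to 0.40 in Sept. and -0.18 to 0.92 for Dec. minus Sept., and for IGFBP1 probe 2 -0.04 to 0.50 for Dec. minus Sept. Of the 6 probes 1 to 2 passed in Dec. and 0 to 1 in Sept., and of all probes 1182 to 3671 in Dec. and 1212 to 1832 in Sept. A pool pair left alone in its lot took its spread from the opposite lot.

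The pool pair number did not pair the samples, since deviations of same-numbered pairs correlated at 0.0319. With it as a replicate block, IGFBP1 probe 1 stayed at 1.71 in Dec. and 0.70 in Sept. and no call of the 6 probes changed, while 2131 probes passed in Sept.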
